A study of Mus musculus with 4 samples.

Results

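Phosphate leaves the tubular fluid through sodium-coupled cotransporters in the brush border of the proximal tubule, and PDZ-domain proteins beneath that membrane anchor the cotransporters there. The genes described here are the 5 phosphate transporters Slc34a1, Slc34a3, Slc20a1, Slc20a2 and Xpr1, and the 3 scaffolds Slc9a3r1, Slc9a3r2 and Pdzk1. They were chosen by symbol, all 8 were found among the 31053 genes of the deposited tables, and their levels were not used to choose them. FGF23 is a bone-derived hormone that acts through FGF receptors with the co-receptor Klotho and lowers phosphate reabsorption, in large part by removal of the type II cotransporters from the apical membrane. Abundance at the membrane is not measured here, since the libraries count mRNA.

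Kidney cells were profiled by droplet 3′ RNA sequencing in 4 libraries. The mice were C57BL/6J (genotype label C57BL/6) of both sexes, 10 weeks old. The libraries at 1, 4 and 12 h followed an intraperitoneal injection of 10 µg of recombinant human FGF23 per mouse, given once, and the 0 h library is labelled 0 µg per mouse. The name of the deposited matrix of that 0 h library reads saline, 1 h, so whether its mice received a vehicle injection cannot be told from the sources. Each library came from paired kidneys of males and females digested together, and the number of pairs is not in the labels. All cells went through enzymatic dissociation, lysis of red blood cells and removal of Annexin V-positive cells. With 1 library per time there is no replicate error, no test and no p-value. Every interval below is a 95% interval that covers counting error of the unique molecular identifiers (UMIs) only, and the 3 comparisons share the 0 h library.

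The libraries held 139675666 to 158838728 UMIs, and 8758 to 10131 cells each were kept. Cells were grouped by markers into 11 classes, named here with the ending "-like". A further cluster, called Cycling-like (led by Mki67 and Top2a), had 67 kept cells, 5 to 30 per library, and was left out of every comparison, so counts over classes do not include it. Its cells over all libraries held 1992 CPM of Slc34a1 and 338 of Pdzk1. Proximal tubule-like cells made up 66.8 to 71.3% of kept cells. Their median depth was 12285, 12955, 11631 and 10742 UMIs at 0, 1, 4 and 12 h. Mitochondrially encoded transcripts took 23.7, 23.9, 18.9 and 23.7% of their UMIs, so the 4 h library stood apart. Leaving those transcripts out of the total moved every log2 ratio at 4 h by -0.09 in proximal tubule-like cells. The S1-like share of proximal tubule-like cells went from 34.7% at 0 h to 41.7% at 12 h, and the female share of cells with a sex call was 31.2, 34.4, 38.0 and 34.9%. Libraries shared 36 to 57 cell barcodes in each pair, 280 in all. Levels are CPM, the UMIs of a gene in every 1000000 UMIs of the summed cells of a class. A sum cannot tell fewer molecules in each cell from fewer cells that hold the gene.

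The S2-like group needs a caution. Its largest cluster, number 0, had 3 S3 markers (Slc7a13, Acsm3 and Atp11a) and 0 S2 markers among its 10 leading genes. It held 36.2, 28.7, 20.6 and 15.1% of S2-like cells over the 4 times. S2-like values over time are therefore given for the cells outside cluster 0, unless it is named as included. The S3-like group was small, with 330, 154, 293 and 227 cells, and its 2 clusters split by sex, since 93.9% of the sex-called cells in cluster 20 were female and 1.6% in cluster 23.

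The 2 promoter windows printed here belong to members of different reach across kidney cells. Slc34a1 was largely restricted to proximal tubule-like cells, and Xpr1 had UMIs in every class. Each window is the 250 bases before the RefSeq start, read 5′ to 3′ on the gene's strand in GRCm38.p6. Capitals mark matches to the motifs searched, which were GTTAAT (bound by HNF1), AGGTCA (nuclear receptors), GGGCGG (Sp1), CCAAT (the CCAAT box), TATAAA (the TATA box), CACGTG (the E-box) and CAAAGTCCA (HNF4 type), each on both strands.
Slc34a1, chr13:55399398-55399647, plus strand: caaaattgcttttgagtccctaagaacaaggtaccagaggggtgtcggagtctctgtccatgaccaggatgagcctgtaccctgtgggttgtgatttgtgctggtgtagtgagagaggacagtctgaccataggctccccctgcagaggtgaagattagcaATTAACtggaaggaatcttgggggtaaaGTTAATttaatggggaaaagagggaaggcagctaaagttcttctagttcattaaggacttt
Xpr1, chr1:155417445-155417694, minus strand: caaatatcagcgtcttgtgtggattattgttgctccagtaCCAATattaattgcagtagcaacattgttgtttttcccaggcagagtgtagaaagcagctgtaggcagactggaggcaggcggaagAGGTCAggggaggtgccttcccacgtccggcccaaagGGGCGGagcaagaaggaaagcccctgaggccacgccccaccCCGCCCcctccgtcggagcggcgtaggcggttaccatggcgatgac
GTTAAT was present in the Slc34a1 window on both strands and in no other window of the 7 members that had one, beside 6.43% of 32851 promoters. The Xpr1 window held 1 match to AGGTCA, another to CCAAT and, on both strands, a GGGCGG match. Of these, AGGTCA was in the windows of 4 of 7 members (14.0% of all promoters), GGGCGG in 5 of 7 (32.7%) and CCAAT in 5 of 7 (33.8%). CACGTG was in 1 of 7 (6.02%), TATAAA in 0 of 7 (12.4%) and CAAAGTCCA in 0 of 7 (0.384%). The 7 members had 10 windows, and a member counts if any of its windows holds the motif. The shares of all promoters are per window, so the 2 measures differ in unit. A match is a description of letters in a window, and nothing here measured binding. The Slc34a1 window lies inside the longer span that GENCODE gives the gene.

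Over the 8 members, proximal tubule-like cells at 12 h had less Slc34a1, Pdzk1, Xpr1 and Slc20a1 and more Slc34a3, Slc9a3r1 and Slc20a2 mRNA than at 0 h, with log2 ratios from -0.36 to 0.25. For Slc34a3 the sign was the opposite within S1-like cells and after weighting to the 0 h mix of clusters. At 1 h the largest ratio was that of Slc20a2, and at 4 h Xpr1 was lower while Slc9a3r1 and Slc9a3r2 were higher. A gene was called when its log2 ratio was at least 0.32 in size, which is a ratio of 5 to 4, and the 2 libraries held at least 100 of its UMIs. Such a ratio is described as past the line. At 1 h, 1 of 8 members was called (Slc20a2), where 10.4% of 11644 genes were. At 4 h, 3 of 8 were called (Xpr1, Slc9a3r1 and Slc9a3r2), where 29.1% of 11744 genes were. At 12 h, 2 of 8 were called (Slc20a1 and Xpr1), where 24.2% of 11636 genes were. These shares are near the background at each time. The median log2 ratio of the members was 0.03, -0.03 and -0.03 at 1, 4 and 12 h, and that of all tested genes 0.01, 0.05 and 0.02.

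**Figure D1:**
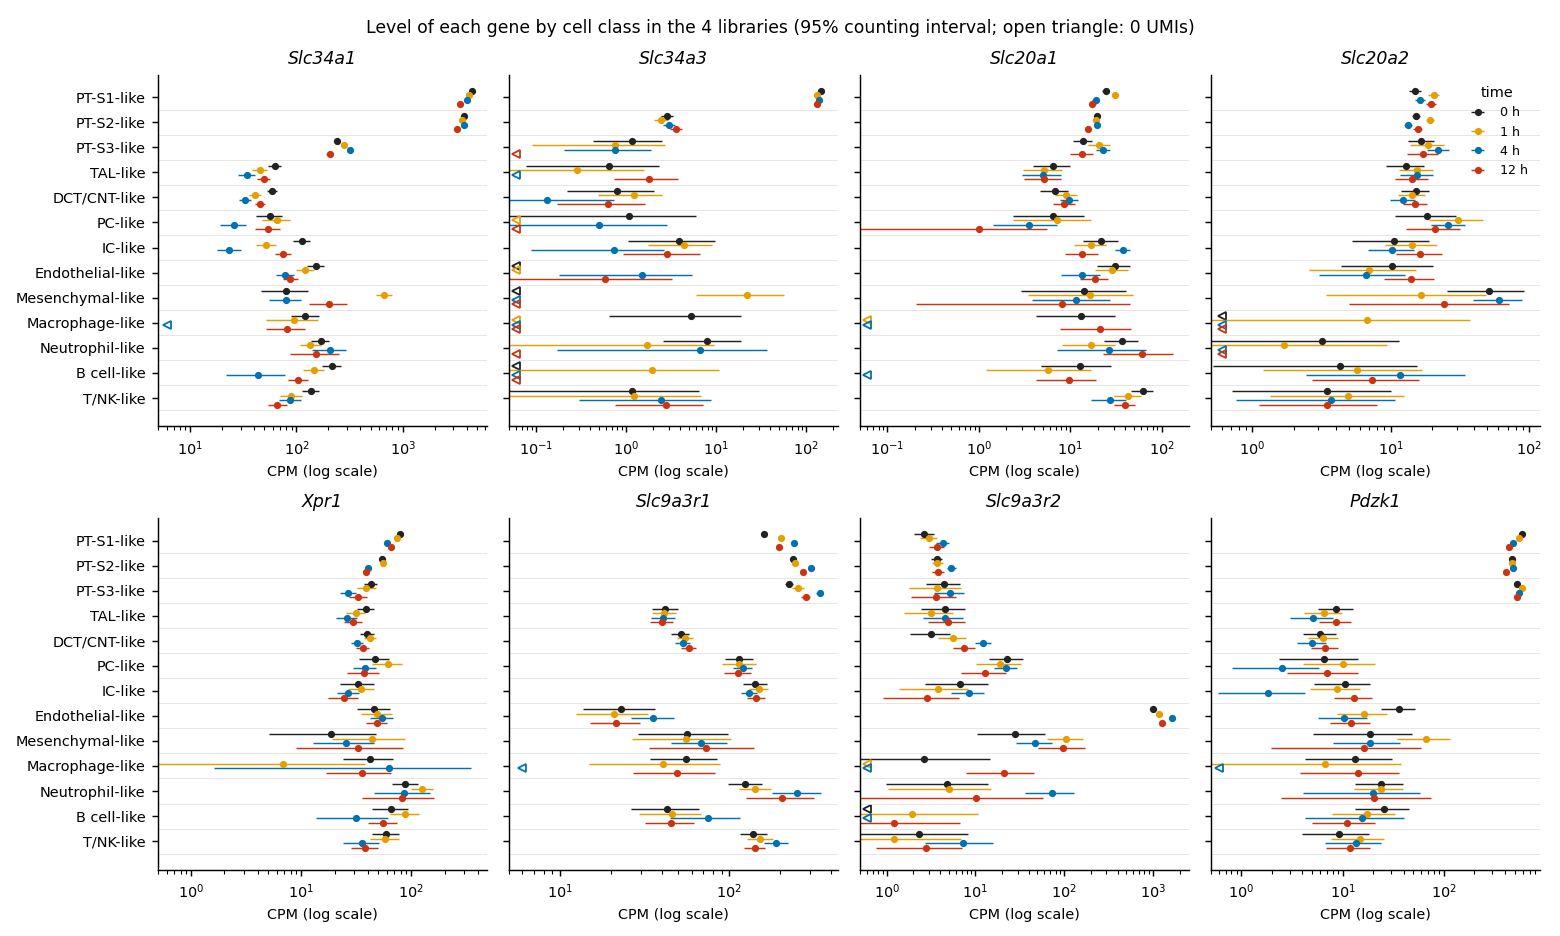
Level of each member (CPM, log axis) in 3 proximal tubule segments and 10 other classes, coloured by time, with 95% counting intervals as lines and open triangles for groups with 0 UMIs. Slc34a1 sits far higher in S1-like and S2-like cells than elsewhere, Pdzk1 in all 3 segments, Slc34a3 in the S1-like segment and Slc9a3r2 in endothelial-like cells, while Xpr1 is spread over all groups.

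Slc34a1 encodes NaPi-IIa, the main phosphate cotransporter of the adult brush border (ENSMUSG00000021490; chromosome 13, 55398187 to 55415592 in GRCm38, overlapped on the other strand by Pfn3). Proximal tubule-like cells of the 0, 1, 4 and 12 h libraries held 3681, 3683, 3628 and 3121 CPM. The counting intervals were 3668 to 3694, 3671 to 3696, 3616 to 3640 and 3109 to 3134. The first 3 libraries lay close together and the 12 h library lay below them, with no overlap of counting intervals. The log2 ratios to 0 h were 0.00, -0.02 and -0.24 (-0.25 to -0.23), the last a difference of -15.2% that did not reach the line. A UMI of Slc34a1 was found in 96.8, 98.4, 97.4 and 96.5% of these cells at 0, 1, 4 and 12 h. With each cell thinned to 2000 UMIs the share was 94.6, 96.3, 95.6 and 94.3%. Nearly every cell held a UMI at this level, so the share could hardly show a difference.

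Along the tubule at 0 h, Slc34a1 stood highest in S1-like cells (4449 CPM), then in S2-like cells (3747 with cluster 0 included), and S3-like cells held 238 CPM. The S1-like level was 1.19 times the S2-like and 18.7 times the S3-like level, and none of these intervals overlapped. Within the S1-like segment the cells themselves varied, with a 10th percentile of 1204, a median of 4378 and a 90th percentile of 7005 CPM per cell at 0 h. In S3-like cells the median was 62.0 and the 90th percentile 861 CPM.

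The decline in S1-like cells was spread over the series. Slc34a1 was at 4449, 4246, 3999 and 3453 CPM there at 0, 1, 4 and 12 h. The log2 ratios were -0.07, -0.15 and -0.37 (-0.38 to -0.35), and the last is past the line. The mix of S1-like clusters differed between the libraries too. The cluster with the highest level over all libraries, number 2 (4855 CPM), held 28.1, 31.6, 23.9 and 20.6% of S1-like cells. The cluster with the lowest, number 4 (1474 CPM), held 19.3, 17.5, 17.5 and 25.4%. The part of this mix in the S1-like ratios was not tested. S2-like cells outside cluster 0 held 3923, 3714, 3814 and 3201 CPM, with ratios of -0.08, -0.04 and -0.29 (-0.31 to -0.28). Cluster 0 itself was at 3575, 3557, 3773 and 3298 CPM. S1-like and S2-like cells thus had their lowest level at 12 h. The summed S3-like cells went the other way at the early times, with 238, 280, 316 and 205 CPM. Their ratios were 0.23 (0.10 to 0.36), 0.41 (0.30 to 0.51) and -0.22 (-0.35 to -0.09), from 743 to 1701 UMIs per library. The median S3-like cell was not higher, at 62.0, 59.4, 39.1 and 49.3 CPM, while the 90th percentile was 861, 1183, 1158 and 734. A UMI was found in 62.1, 66.9, 54.6 and 56.8% of S3-like cells. The S3-like values differed between the sex calls. Female-called cells held 136, 390, 240 and 130 CPM, on 64, 44, 59 and 50 cells. Male-called cells held 233, 198, 399 and 322 CPM, on 138, 48, 96 and 42 cells. A sex difference cannot be told apart here from one between the pooled animals.

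Taken cluster by cluster, Slc34a1 at 12 h was lower than at 0 h in 15 of 16 proximal tubule clusters with at least 50 cells in each library, 6 of them past the line. The median cluster ratio was -0.30 and the range -0.57 to 0.09. At 4 h, 8 clusters were higher and 8 lower, with a median of 0.02. In cluster 2, the largest S1-like cluster at 0 h, the levels were 5352, 5092, 4507 and 4331 CPM.

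Sex calls separate cells of different animals within a library, so they give a further look that still shares the library. Cells counted as female held Xist and no Y-linked UMIs, and cells counted as male the reverse. Slc34a1 in male-called proximal tubule-like cells was at 3629, 3699, 3813 and 3259 CPM, with ratios of 0.03, 0.07 and -0.16. In female-called cells it was at 4238, 4142, 3574 and 3426 CPM, with ratios of -0.03, -0.25 and -0.31. Both sexes were lower at 12 h, and at 4 h the female cells were lower while the male cells were slightly higher. In the S1-like segment the 12 h ratio was -0.36 in male and -0.29 in female cells. At 0 h the female level exceeded the male by 0.06 in S1-like cells on the log2 scale. In S2-like cells the difference was 0.23 with cluster 0 included, of whose sex-called cells 0.41% were female, and 0.15 (0.13 to 0.17) without it.

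Outside the proximal tubule the Slc34a1 signal was low in most classes and did not exceed that of proximal tubule markers. Over 10 classes and 4 libraries its level had a median of 2.29% of the proximal tubule level and a highest value of 18.2%, in mesenchymal-like cells at 1 h, and in 0 of 40 class and library pairs did it exceed the range of 18 proximal tubule marker genes measured the same way. The parts of free RNA and of remaining doublets in these values were not tested. In endothelial-like cells, which lack the cotransporter, 27.6% of cells at 0 h held a UMI at a median depth of 2212 UMIs. After thinning to 2000 UMIs that share was 20.5, 17.9, 10.6 and 11.7% over time. The lower neighbours in the order of levels at 0 h, from B cell-like (215 CPM) to principal cell-like (56.3 CPM), each overlapped the next, and S3-like cells overlapped B cell-like cells.

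**Figure D2:**
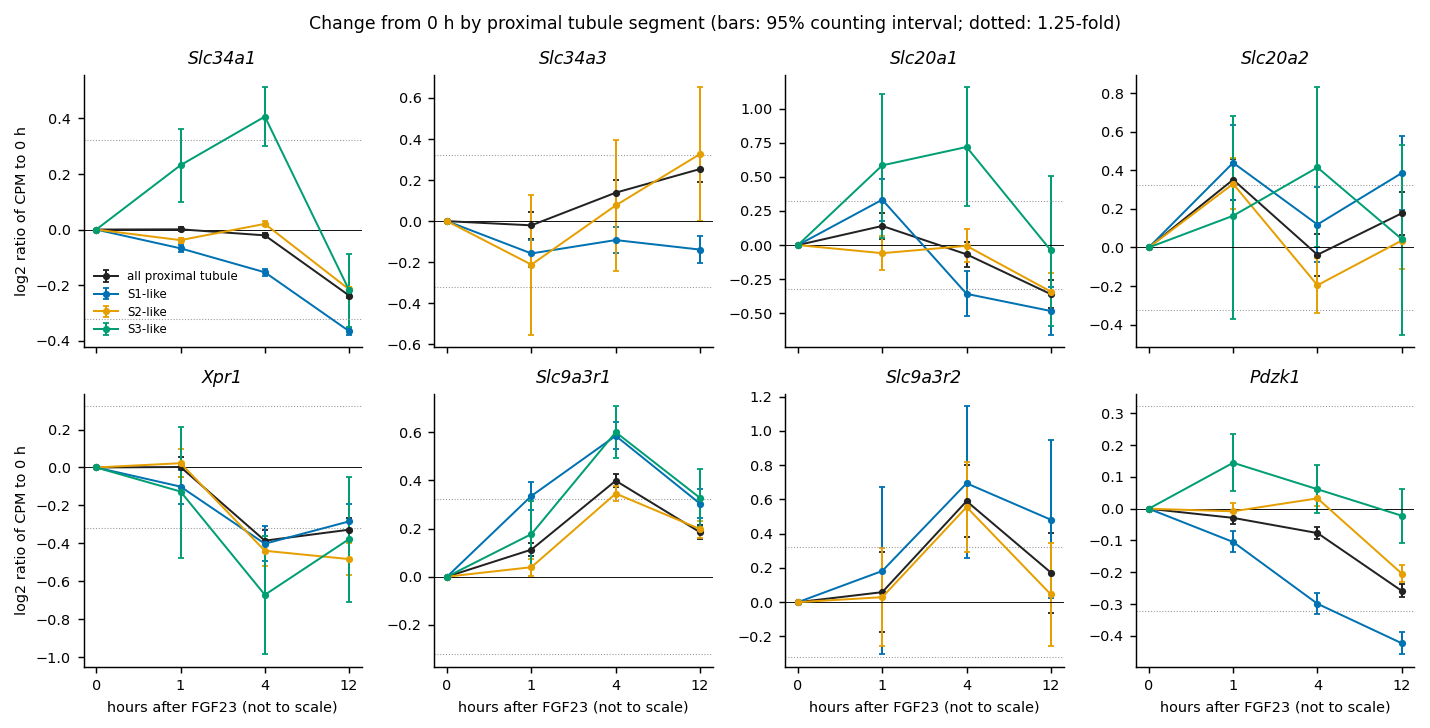
Log2 ratio to 0 h of each member (vertical axis) at 1, 4 and 12 h (horizontal axis, not to scale) in all proximal tubule-like cells and in S1-like, S2-like (cluster 0 included) and S3-like cells, with 95% counting intervals and dotted lines at -0.32 and 0.32. Xpr1 lies below 0 in each group at 4 h and Slc9a3r1 above 0, while Slc34a1 differs by segment.

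Slc34a3 encodes NaPi-IIc, the electroneutral type II cotransporter (ENSMUSG00000006469; chromosome 2, 25228898 to 25234364). In these data it was mostly an S1-like transcript, with 146 CPM at 0 h (interval 141 to 151) against 2.84 in S2-like and 1.16 in S3-like cells. These S2-like values include cluster 0. The S1-like level was 51.3 times the S2-like level, and 31.8 times that of the S2-like cells outside cluster 0, which held 4.58 CPM. A UMI was found in 63.2% of S1-like and 3.94% of S2-like cells at 0 h (4.94% outside cluster 0), and after thinning in 26.5% and 0.94% (1.30% outside it). Endothelial-like cells had 0 UMIs in 319 cells at 0 h, which allows a share of up to 0.940% of cells with a UMI. In 7 of 40 class and library pairs outside the proximal tubule the level exceeded the range of the 18 markers, but on 1 to 7 UMIs each.

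The pooled and the S1-like values of Slc34a3 pointed in opposite directions. In all proximal tubule-like cells it was at 43.4, 42.8, 47.8 and 51.7 CPM, with log2 ratios of -0.02, 0.14 (0.08 to 0.20) and 0.25 (0.19 to 0.32). In S1-like cells it was at 146, 131, 137 and 133 CPM, with ratios of -0.16 (-0.22 to -0.09), -0.09 (-0.16 to -0.03) and -0.14 (-0.20 to -0.07). Taken by proximal tubule cluster, 6 of 6 with enough UMIs were lower at 1 h. At 4 h and again at 12 h, 3 clusters were higher and 4 lower, with medians of -0.09 and -0.02. None was past the line at 12 h. Weighting the libraries to the 0 h mix of clusters gave -0.08 at 4 h and -0.04 at 12 h in place of the pooled 0.14 and 0.25. The pooled increase thus went with the larger S1-like share of the later libraries. S2-like cells outside cluster 0 held 126, 124, 159 and 155 UMIs, with ratios of -0.28, -0.15 and 0.06 whose intervals all include 0. S3-like cells held 6, 2, 4 and 0 UMIs.

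The sex difference in Slc34a3 was large in the pooled cells and small within S1-like cells. At 0 h it was at 84.8 CPM in female-called and 30.2 in male-called proximal tubule-like cells, a 2.81-fold difference, and the female minus male log2 difference was 0.07 within the S1-like segment. Female cells then held 70.2, 77.9 and 84.7 CPM at 1, 4 and 12 h, and male cells 34.5, 36.4 and 42.2. In S1-like cells the 12 h ratio was -0.09 in female and -0.08 in male cells.

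Slc20a1 encodes PiT-1, a type III cotransporter present in most tissues (ENSMUSG00000027397; chromosome 2, 129198764 to 129211616, with 2 genes on the other strand). At 0 h its level was highest in T/NK-like cells, at 61.9 CPM from 54 UMIs, and lowest in thick ascending limb-like cells, at 6.44 CPM. S1-like cells held 24.4, S2-like cells 19.8 with cluster 0 included (17.4 without it) and S3-like cells 13.9 CPM, and each neighbour in the order of classes overlapped the next. In proximal tubule-like cells Slc20a1 stood at 20.4 (19.5 to 21.4), 22.5 (21.5 to 23.5), 19.5 (18.6 to 20.4) and 15.9 (15.0 to 16.8) CPM over the 4 times. The 12 h library was lowest, with a log2 ratio of -0.36 (-0.46 to -0.26), past the line. Weighted to the 0 h mix of clusters that ratio was -0.21, short of the line.

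Among cells with a sex call, the Slc20a1 difference rested on the female-called cells. They held 26.6, 35.2, 15.5 and 12.4 CPM (467, 749, 388 and 231 UMIs), with log2 ratios of 0.41 (0.24 to 0.58), -0.78 (-0.98 to -0.58) and -1.10 (-1.34 to -0.87). Male-called cells held 20.8, 19.7, 23.7 and 20.2 CPM (1067, 981, 1197 and 804 UMIs), with ratios of -0.08, 0.19 and -0.05. The female level was thus above the male level at 0 and 1 h and below it at 4 and 12 h. The same held in S1-like cells, with 30.5, 38.5, 16.7 and 14.7 CPM in female and 23.2, 27.0, 23.1 and 22.3 in male cells. In S2-like cells with cluster 0 included, female cells held 22.0, 30.6, 11.1 and 8.80 CPM and male cells 20.9, 17.6, 23.6 and 19.5. Cells without a sex call were 32.3% of proximal tubule-like cells at 0 h and 40.6% at 12 h, and were not looked at separately. With 1 library per time, a sex difference cannot be told apart from a difference between the individual animals pooled in each.

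Segments also differed for Slc20a1. S1-like cells held 24.4, 30.7, 19.0 and 17.4 CPM, with ratios of 0.33 (0.18 to 0.49), -0.36 (-0.52 to -0.19) and -0.48 (-0.66 to -0.31). S2-like cells outside cluster 0 held 17.4, 18.9, 16.3 and 13.3 CPM, and the 12 h ratio was -0.39 (-0.58 to -0.20). S3-like cells held 13.9, 20.8, 22.8 and 13.5 CPM from 49 to 123 UMIs. Of 8 clusters with enough UMIs, 6 were lower at 12 h, with a range of -1.36 to 0.32. Outside the proximal tubule, T/NK-like cells held 61.9, 42.9, 26.9 and 39.9 CPM, and intercalated cell-like cells 22.0, 16.9, 37.7 and 13.6.

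**Figure D3:**
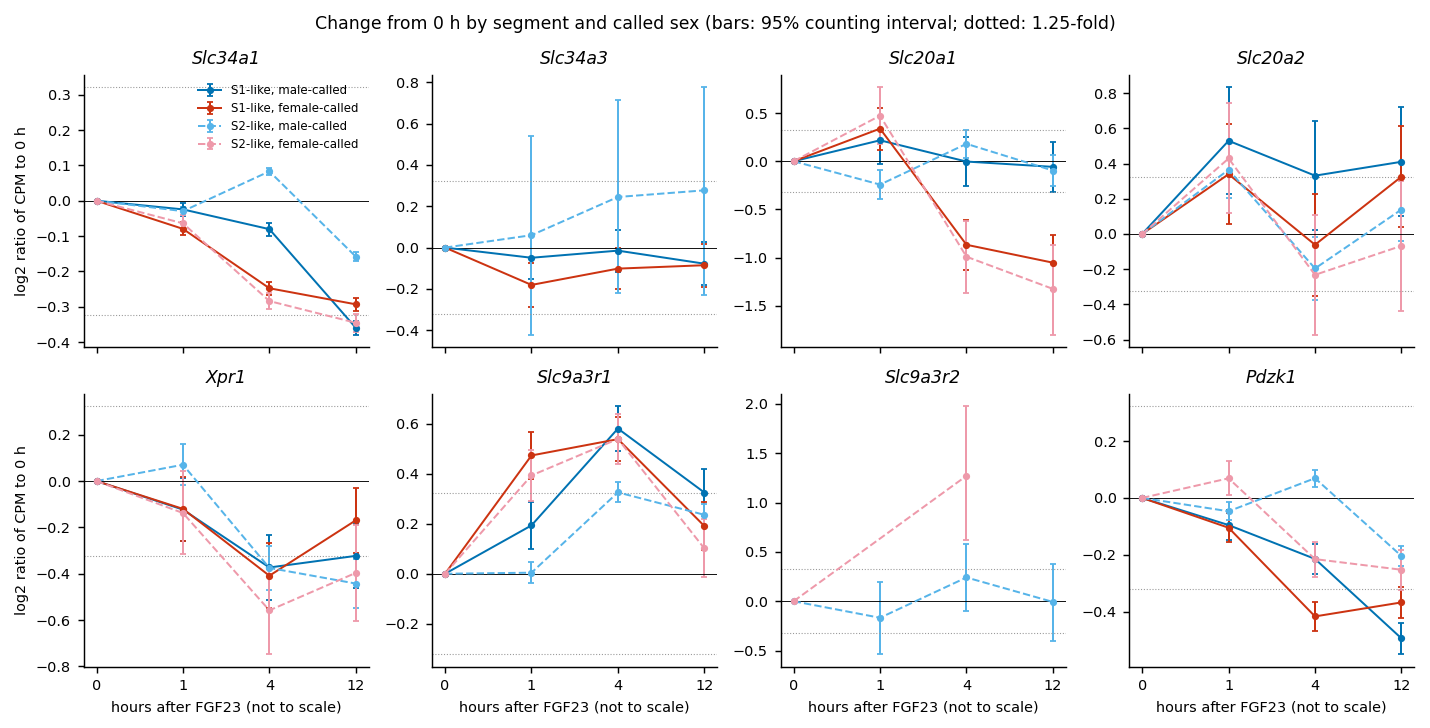
Log2 ratio to 0 h of each member in male-called and female-called cells of the S1-like and the S2-like segment (cluster 0 included), with 95% counting intervals. For Slc20a1 the female cells lie between -1.32 and -0.87 at 4 and 12 h and the male cells between -0.10 and 0.18, while Slc34a1 is below 0 in all 4 series at 12 h.

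Slc20a2 encodes PiT-2, the type III cotransporter known in the proximal brush border (ENSMUSG00000037656; chromosome 8, 22476788 to 22569612, overlapped by a gene on the other strand and a sense intronic one). In proximal tubule-like cells Slc20a2 stood at 15.1 (14.3 to 15.9), 19.2 (18.3 to 20.2), 14.7 (13.9 to 15.5) and 17.0 (16.1 to 18) CPM over the 4 times. The 1 h library was the highest, with a log2 ratio of 0.35 (0.25 to 0.46), and 4 h was back at the 0 h level within counting error. Among cells with a sex call, both sexes showed the 1 h difference, from 15.3 to 20.1 CPM in male and from 18.7 to 24.7 in female cells. Each is a log2 ratio of 0.40, above the pooled 0.35. Cells without a sex call, 32.3% of proximal tubule-like cells at 0 h and 30.1% at 1 h, were not looked at separately.

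All 8 clusters with enough Slc20a2 UMIs were higher at 1 h, by a median of 0.34 and a range of 0.09 to 0.67, and 4 of them were past the line. In S1-like cells the levels were 15.1, 20.4, 16.4 and 19.7 CPM, with ratios of 0.44 (0.25 to 0.63), 0.12 (-0.08 to 0.32) and 0.39 (0.19 to 0.58). In S2-like cells outside cluster 0 the 1 h ratio was 0.21 (0.03 to 0.40) and not past the line, from 15.1 to 17.5 CPM. The 3 segments did not differ at 0 h beyond counting error, with 15.1, 15.3 (cluster 0 included, 15.1 without it) and 16.6 CPM from S1 to S3. Mesenchymal-like cells held 51.4 CPM, on 11 UMIs, principal cell-like cells 18.4 and distal convoluted and connecting tubule-like cells 15.2. Macrophage-like cells had 0 UMIs at 0 h.

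Xpr1 encodes the phosphate exporter of the plasma membrane, which is gated by inositol pyrophosphates (ENSMUSG00000026469; chromosome 1, 155275701 to 155417415, overlapped on the other strand by a miRNA gene). It was found in every class at 0 h, from 18.7 CPM in mesenchymal-like to 87.7 in neutrophil-like cells, and its level outside the proximal tubule exceeded the marker range in 39 of 40 class and library pairs. S1-like cells held 79.4 CPM, S2-like cells 54.1 with cluster 0 included, and S3-like cells 42.6. Those 3 intervals do not overlap, whereas every class overlaps its neighbour in the full order.

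Xpr1 mRNA was lower at 4 and 12 h in proximal tubule-like cells and in each segment. It stood at 59.6 (58.0 to 61.2), 59.7 (58.1 to 61.3), 45.6 (44.3 to 47.0) and 47.5 (46.0 to 49.0) CPM over the 4 times. The 0 and 1 h libraries formed an upper pair and the 4 and 12 h libraries a lower pair without overlap. Its log2 ratios were 0.00 (-0.05 to 0.06), -0.39 (-0.44 to -0.33) and -0.33 (-0.39 to -0.27). The later pair are differences of -23.5% and -20.3%, both past the line. Weighted to the 0 h mix of clusters, the 12 h ratio was -0.27, short of the line. The same split was seen in S1-like cells, at 79.4, 74.1, 60.1 and 65.2 CPM, and in S2-like cells outside cluster 0, at 48.9, 48.2, 37.5 and 36.0. S3-like cells held 42.6, 39.0, 26.7 and 32.8 CPM, with a 4 h ratio of -0.67 (-0.98 to -0.36).

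At 4 h, 14 of 14 clusters with enough Xpr1 UMIs were lower, 8 of them past the line, with a median of -0.35 and a range of -0.87 to -0.17. At 12 h, 11 of 14 were lower. Clusters 2, 4, 5 and 7 were within 0.1 of 0 on the log2 scale at 12 h, with ratios of -0.04, 0.09, 0.09 and 0.01. Male cells held 60.6, 62.9, 48.1 and 49.1 CPM and female cells 76.9, 70.5, 56 and 65.0, so both sexes were lower at 4 h (log2 ratios of -0.34 and -0.46) and at 12 h (-0.30 and -0.24). The lower mitochondrial share of the 4 h library moves the ratio further from 0, to -0.48 when those transcripts are left out.

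Xpr1 was also lower at 4 h in some classes outside the proximal tubule. Thick ascending limb-like cells went from 38.3 to 25.8 CPM, a ratio of -0.57 (-0.98 to -0.16). T/NK-like cells held 58.5, 57.6, 35.5 and 37.8 CPM, with ratios of -0.72 (-1.43 to -0.03) at 4 h and -0.63 (-1.20 to -0.05) at 12 h. Distal convoluted and connecting tubule-like cells went from 39.5 to 32.3 CPM, a ratio of -0.29 (-0.56 to -0.01). Endothelial-like cells, by contrast, held 45.9, 48.8, 54.0 and 48.7 CPM, and the interval of each ratio includes 0. These classes rest on 29 to 247 UMIs per library.

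**Figure D4:**
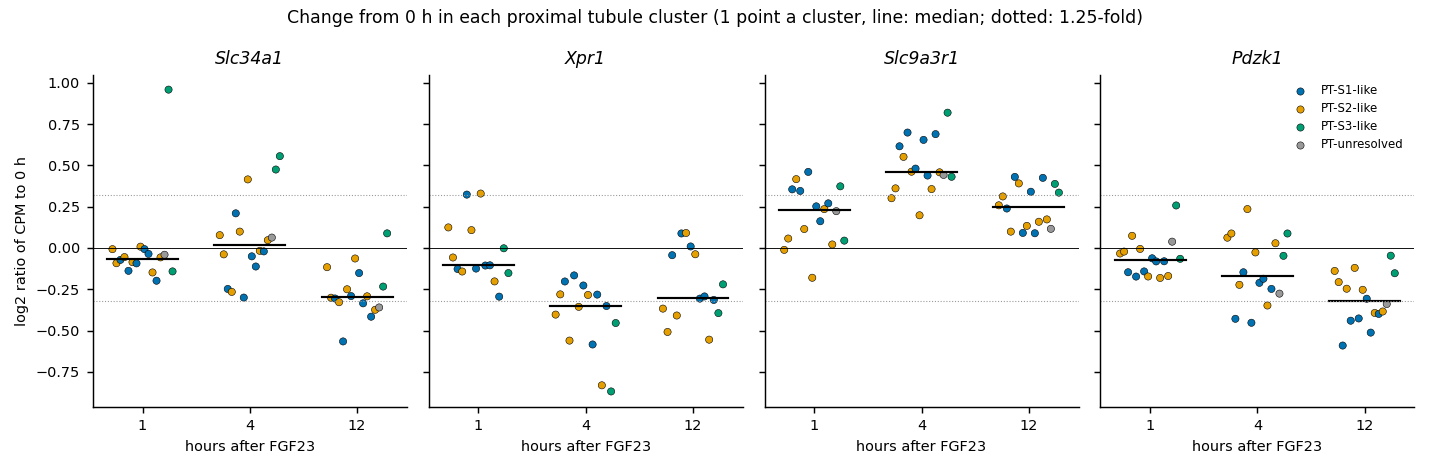
Log2 ratio to 0 h of Slc34a1, Xpr1, Slc9a3r1 and Pdzk1 at 1, 4 and 12 h, with 1 point for each proximal tubule cluster coloured by segment and a line at the median. At 4 h all 14 Xpr1 points lie below 0 and all 16 Slc9a3r1 points above 0, and at 12 h all 16 Pdzk1 points lie below 0.

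Slc9a3r1 encodes NHERF1, the PDZ scaffold that binds the tail of NaPi-IIa and whose phosphorylation releases it (ENSMUSG00000020733; chromosome 11, 115163341 to 115181181). Its mRNA was higher at every time after 0 h in the proximal tubule. It stood at 217 (214 to 220), 234 (231 to 238), 286 (283 to 289) and 246 (243 to 250) CPM over the 4 times. No 2 of these intervals overlap, and 4 h was highest. The log2 ratios were 0.11 (0.08 to 0.14), 0.40 (0.37 to 0.43) and 0.18 (0.16 to 0.21). With mitochondrially encoded transcripts left out, the 4 h ratio was 0.31 and no longer past the line.

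S1-like cells, where Slc9a3r1 was lowest at 0 h, had larger ratios. They held 160, 201, 239 and 197 CPM, with ratios of 0.34 (0.28 to 0.39), 0.59 (0.53 to 0.64) and 0.30 (0.24 to 0.36). S2-like cells outside cluster 0 held 227, 243, 300 and 264 CPM, with ratios of 0.10, 0.41 and 0.22. S3-like cells held 225, 254, 341 and 282 CPM, with a 4 h ratio of 0.60 (0.49 to 0.71). The 4 h library was the highest in each of the 3 segments. At 4 h, 16 of 16 clusters were higher, 14 past the line, by a median of 0.46 and a range of 0.20 to 0.82. At 12 h, 16 of 16 were higher and 6 were past it. Male cells held 231, 235, 295 and 266 CPM and female cells 171, 228, 250 and 190, so at 1 h the ratio was 0.02 in male and 0.41 in female cells. The share of cells with a UMI, each thinned to 2000 UMIs, was 33, 37.5, 41.4 and 35.8%, highest at 4 h and lowest at 0 h as the levels were, with 1 and 12 h in the other order.

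Outside the proximal tubule, Slc9a3r1 in intercalated cell-like cells was at 142, 149, 131 and 144 CPM, and in principal cell-like cells at 115, 115, 120 and 112. Thick ascending limb-like cells held 41.8, 41.3, 40.7 and 39.8 CPM. The 4 h intervals of these 3 tubule classes include 0, so a difference was not detectable there at this depth. T/NK-like cells went from 139 to 189 CPM at 4 h, a ratio of 0.44 (0.09 to 0.80). Neutrophil-like cells went from 124 to 252, on 38 UMIs at 4 h. Endothelial-like cells had the lowest level at 0 h, 22.9 CPM.

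Slc9a3r2 encodes NHERF2, a related scaffold (ENSMUSG00000002504; chromosome 17, 24639286 to 24650327), and was an endothelial transcript in these libraries. Endothelial-like cells held 1004, 1176, 1624 and 1254 CPM at 0, 1, 4 and 12 h, from 788, 1013, 2194 and 2165 UMIs. The 4 h library was highest, and all 3 later libraries were above 0 h, with log2 ratios of 0.23 (0.09 to 0.36), 0.69 (0.58 to 0.81) and 0.32 (0.20 to 0.44). The 12 h value lies just under the line and the 4 h value is past it, where 19.7, 28.2 and 21.4% of genes were called in that class at the 3 times. The thinned share of cells with a UMI was 77.4, 83.7, 90.7 and 85.1%. In the proximal tubule it was at 3.41, 3.56, 5.14 and 3.85 CPM, from 300 to 500 UMIs, with a 4 h ratio of 0.59 (0.38 to 0.80).

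The proximal Slc9a3r2 difference at 4 h was larger in female cells, with a ratio of 1.11 (from 53 to 163 UMIs), than in male cells, with 0.22 (from 174 to 200 UMIs). Distal convoluted and connecting tubule-like cells held 3.19, 5.59, 12.2 and 7.51 CPM, on 16, 32, 93 and 48 UMIs, with ratios of 1.93 (1.16 to 2.80) at 4 h and 1.24 (0.39 to 2.15) at 12 h. Within that class, cluster 14, led by Slc12a3 and Pvalb, held 3.89, 6.65, 14.8 and 8 CPM. The endothelial-like level also peaked at 4 h, and the part of free endothelial RNA in these low values was not tested.

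Pdzk1 encodes NHERF3, the scaffold with several PDZ domains that binds NaPi-IIa and other apical carriers (ENSMUSG00000038298; chromosome 3, 96829284 to 96870926, with genes on the other strand, Cd160 and Gpr89 among them). Proximal tubule-like cells held 514 (509 to 519), 504 (499 to 508), 487 (483 to 492) and 430 (425 to 434) CPM over the 4 times. Each library was below the one before it without overlap of intervals, and the ratio at 12 h was -0.26 (-0.28 to -0.24), or -16.4%, which is not past the line. At 12 h, 16 of 16 clusters were lower, 8 past the line, with a median of -0.32 and a range of -0.59 to -0.05.

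Along the tubule at 0 h Pdzk1 was at 591 CPM in S1-like, 531 in S3-like and 472 in S2-like cells (cluster 0 included, 486 without it), and the intervals of the 3 segments did not overlap. In S1-like cells it was at 591, 549, 480 and 440 CPM, with ratios of -0.10, -0.30 (-0.33 to -0.27) and -0.42 (-0.46 to -0.39). In S2-like cells outside cluster 0 it was at 486, 485, 485 and 407 CPM, so only the 12 h library stood lower, with a ratio of -0.26 (-0.29 to -0.22). S3-like cells held 531, 587, 554 and 523 CPM, and at 12 h their interval of -0.11 to 0.06 includes 0. Male cells held 486, 469, 489 and 405 CPM and female cells 590, 580, 471 and 476. Both sexes were lower at 12 h, and the female level was already lower at 4 h. Elsewhere Pdzk1 was at a median of 2.55% of the proximal tubule level, above the marker range in 0 of 40 class and library pairs.

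The segments can be set against their backgrounds. In S1-like cells 3, 4 and 5 of 8 members were called at 1, 4 and 12 h, where 10.6, 29.6 and 22.9% of genes were. At 12 h the 5 were Slc34a1, Slc20a1 and Pdzk1, which were lower, and Slc20a2 and Slc9a3r2, which were higher. In S3-like cells 6 members had enough UMIs at each time, and 1, 5 and 2 were called, where 18.5, 42.8 and 35.7% of genes were. In S2-like cells with cluster 0 included 1, 3 and 3 were called, where 8.98, 29.7 and 26.7% were. These shares were not tested, and with 8 genes each call moves them by a large step.

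**Figure D5:**
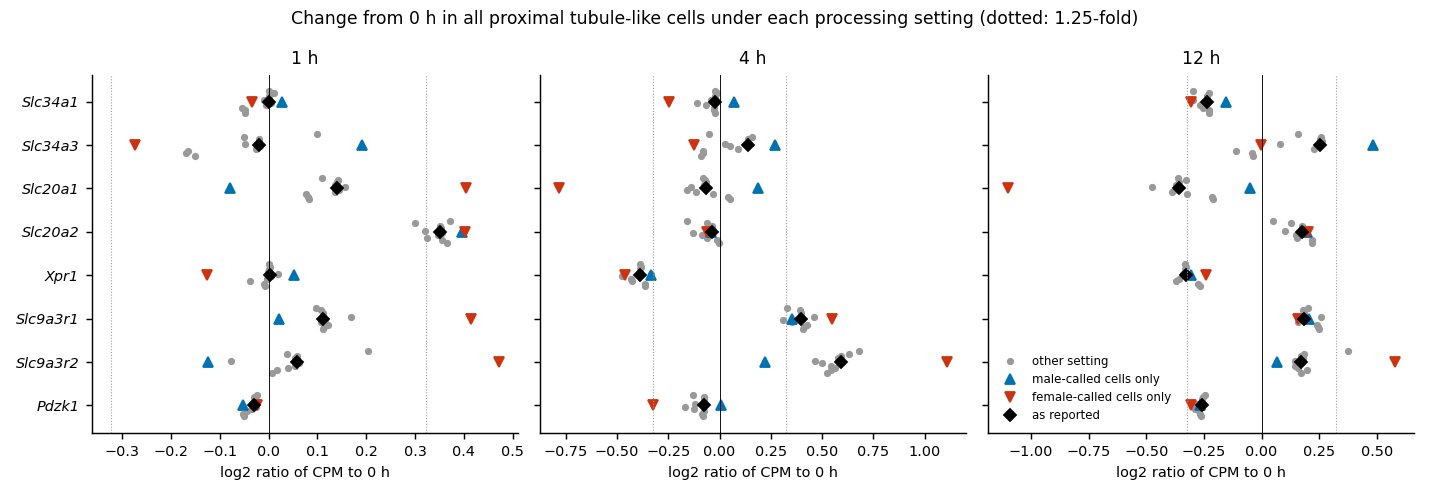
Log2 ratio to 0 h of each member in proximal tubule-like cells at 1, 4 and 12 h as reported (black diamonds), in male-called and female-called cells (triangles) and under the other settings tried (grey). The Xpr1 values at 4 h all lie between -0.48 and -0.33, while the Slc20a1 values at 12 h run from -1.10 in female-called to -0.05 in male-called cells.

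Of 10 genes for apical partners of the type II cotransporters and for brush border machinery, none was called in proximal tubule-like cells at 1 h, 2 were higher at 4 h and 3 at 12 h, and none was lower. The list's median log2 ratio was 0.11, 0.10 and 0.20, beside 0.01, 0.05 and 0.02 for all genes, of which 4.72, 16.8 and 13.2% were called higher and 5.67, 12.3 and 10.9% lower. Lrp2 and Cubn of this list were also proximal tubule markers in the naming of the groups. Ezr, the linker of scaffolds to actin, was at 165, 192, 214 and 186 CPM, and its 4 h ratio was 0.37. Slc34a2, the type II cotransporter known from lung and intestine, went from 0.65 to 2.63 CPM at 4 h, a ratio of 2.02, and was at 0.96 CPM at 12 h. Slc9a3, the sodium-proton exchanger, was at 42.5 CPM at 0 h and 53.7 at 12 h (0.34), and Shank2, another PDZ protein, at 8.51 and 11.3 CPM (0.41). Within segments some were called lower, namely Dab2 in S2-like (cluster 0 included) and S3-like cells at 4 h and Pdzk1ip1 in S3-like cells at 12 h. Of all genes, 29.7 and 42.8% were called either way in these S2-like and S3-like cells at 4 h, and 35.7% in S3-like cells at 12 h.

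Of the hormone receptors and kinases that act on the cotransporters, 9 of 10 had enough UMIs. In the pooled proximal tubule-like cells, 2 were called higher and none lower at 1 h. At 4 h 1 was higher and 1 lower, and at 12 h 1 was higher and 2 lower. The shares of all genes called at 1, 4 and 12 h were 4.72, 16.8 and 13.2% higher and 5.67, 12.3 and 10.9% lower. Vdr, the vitamin D receptor, was at 92.6, 122, 171 and 164 CPM (0.40, 0.89 and 0.82). Kl, the FGF23 co-receptor, was at 208, 192, 128 and 123 CPM, with ratios of -0.71 and -0.76 at 4 and 12 h. Sgk1, a kinase that acts on transporters and their scaffolds, was at 42.7, 75.3, 47.1 and 8.98 CPM, which is the largest difference in the list at 12 h (-2.25). Pth1r, the parathyroid hormone receptor, was at 402, 417, 398 and 385 CPM and Fgfr1 at 10.2, 9.93, 9.91 and 10.9, and neither was called. Calls differed by segment. At 1, 4 and 12 h, 10.6, 29.6 and 22.9% of all genes were called in S1-like cells. The shares were 8.98, 29.7 and 26.7% in S2-like (cluster 0 included) and 18.5, 42.8 and 35.7% in S3-like cells. At 4 h Sgk1 was called lower in S1-like cells and higher in S2-like (cluster 0 included) and S3-like cells. Fgfr4 was called lower in S3-like cells at 1 and 12 h and in S2-like cells (cluster 0 included) at 12 h. Kl was also called lower in S3-like cells at 1 h, and Prkca higher in S1-like cells at 12 h.

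Of 6 genes for inositol pyrophosphate metabolism and XPR1 regulation, 1 was called at 1 h, Ppip5k1, an inositol pyrophosphate kinase, at 14.2 and 11.4 CPM (-0.32). None was called at 4 or 12 h in the pooled proximal tubule-like cells, but members were called within segments. Of all genes in the pooled cells, 10.4, 29.1 and 24.2% were called at 1, 4 and 12 h. At 4 h Kidins220 was lower in S1-like cells, Ppip5k1 in S2-like cells (cluster 0 included), and Ip6k1, Ppip5k1 and Kidins220 in S3-like cells, where Ip6k2 was higher. At that time 29.6, 29.7 and 42.8% of all genes were called in S1-like, S2-like (cluster 0 included) and S3-like cells. At 12 h Ppip5k1 was lower in S2-like (cluster 0 included) and S3-like cells. The shares of all genes called at 12 h were 22.9, 26.7 and 35.7% in S1-like, S2-like (cluster 0 included) and S3-like cells. The pooled list's medians were 0.00, -0.15 and -0.08. Kidins220, whose protein partners XPR1, was at 91.8, 93.4, 75.2 and 85.9 CPM, with a 4 h ratio of -0.29 that did not reach the line. Of 4 other phosphate carriers, Slc17a1, Slc17a3, Slc25a3 and Slc37a4, none was called at any time in the pooled cells, with medians of -0.03, 0.15 and -0.07. Within segments at 4 h, Slc17a1 and Slc17a3 were called higher in S1-like cells and Slc25a3 and Slc37a4 in S3-like cells, and Slc17a3 was called higher in S1-like cells at 12 h.

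Other apical transporters served as a comparison list of 11 genes. In the pooled proximal tubule-like cells none was called at 1 h, 5 were higher and 2 lower at 4 h, and 6 were higher and 1 lower at 12 h. Of all genes, 4.72, 16.8 and 13.2% were called higher and 5.67, 12.3 and 10.9% lower at those times. Slc13a1, the sodium-sulfate cotransporter, was at 296, 368, 538 and 683 CPM (0.31, 0.86 and 1.21). Slc7a9, which carries cystine and basic amino acids, went from 102 to 173 CPM at 12 h (0.77) and the glucose carrier Slc5a1 from 21.1 to 30.2 (0.52). The lactate carrier Slc5a12 was at 149, 130, 79.0 and 110 CPM, with ratios of -0.92 and -0.45 at 4 and 12 h. The neutral amino acid carrier Slc6a19 went from 169 to 130 CPM at 4 h (-0.38). The list's median was -0.05, 0.29 and 0.32, and Slc34a1 was at 0.00, -0.02 and -0.24. Slc5a2, Slc5a12, Slc6a19 and Slc13a3 of this list were also segment markers and so took part in the clustering.

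For each member, the genes with the most similar levels over the 13 classes and segments at 0 h were found by Pearson's r of log2(CPM + 1) among 12702 genes. The points share 1 library and differ in depth, so r is a description. Slc34a1 was most like Miox (0.974), G6pc (0.973) and Slc22a8 (0.972), and Pdzk1 most like Abcc2 (0.989), Spink1 (0.987) and Keg1 (0.984). Miox and Keg1 were proximal tubule markers and Slc22a8 an S2 marker in the naming of the groups, so their likeness was partly built in. Slc9a3r2 was most like Cyyr1 (0.968), Npr3 (0.968) and Plpp1 (0.966). The nearest genes to Slc34a3 were Ugt2b34 (0.913), Ablim3 (0.889) and Gm36372 (0.887). For Slc20a2 they were Mtmr10 (0.949), 1110065P20Rik (0.948) and Gm20300 (0.940), and for Slc20a1 Tfdp1 (0.906), Gm11713 (0.834) and Mtmr12 (0.787). For Xpr1 they were Tgds (0.893), Il17ra (0.863) and Slc25a37 (0.857), and for Slc9a3r1 Ggt6 (0.873), Gm11525 (0.852) and Sephs2 (0.846). Among the members themselves the highest r was 0.862, between Slc34a1 and Pdzk1.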

How the data were processed

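Single kidney cells were measured with the 10x 3′ kit, version 3, per the labels' protocols. The authors deposited 1 matrix of raw UMI counts for each of 4 libraries. Cell Ranger 3.1.0, STAR, Seurat and the mm10 build are named, per the submitters' processing notes, with no role given. Whether counting used strand or introns is not given in the sources used here, so overlapping genes may share counts. Of the gene IDs, 99.6% matched GENCODE vM21, from which coordinates were taken. Promoter windows are RefSeq's, and 7 of 8 members had at least 1, with 10 windows among them.

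Barcodes with at least 300 genes and at most 50% mitochondrial UMIs were kept. Doublets were called from simulated doublets with 30 neighbours at an assumed 0.8% per 1000 cells, and 7.59 to 8.89% of barcodes were removed. The clustering used 30 principal components of 2017 genes, with the members left out, 20 neighbours and Leiden resolution 1.5. It gave 54 clusters, of which 36 were named from markers and 18 (4.27 to 4.84% of cells) were left out. Naming thresholds were chosen with the clusters in view. The members and lists were chosen with earlier results of these data known.

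UMIs were summed per class and library. Intervals are exact Poisson for levels, exact conditional binomial for ratios and Clopper-Pearson for shares of cells, at 95%. UMIs from a cell are not independent of each other, so true errors are larger. The floor for a count of 0 is 3 counts. All 8 members are named. In each list, at most the 3 called genes with the largest ratios were named in each direction and time, and genes named without being called were chosen after their values were seen. Scripts were tested on simulated data. Python 3.11.15, numpy 2.4.6, scipy 1.17.1, pandas 2.3.3, scikit-learn 1.9.0, igraph 0.11.9, leidenalg 0.10.2, matplotlib 3.10.9 and, for TMM scaling alone, edgeR 4.0.16 were used. Alternatives changed the mitochondrial limit (25%), doublet removal, resolution, scaling, weighting of cells, sex, mix of segments or clusters, fold and UMI minimum. A time of 24 h was not analysed here.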

Additional observations from a re-analysis of the deposited data

Results flagged for a closer look

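Slc20a1 at 4 h had a log2 ratio to 0 h of 0.72 in S3-like and -0.36 in S1-like cells, with intervals that exclude 0 on opposite sides. It stands out because the segments moved in opposite directions under the same contrast, and the difference itself was not tested. In S1-like cells the ratio was -0.87 in female-called and 0.00 in male-called cells. In S3-like cells it was 0.40 in female-called cells (25 and 43 UMIs) and 1.19 in male-called cells (34 and 58 UMIs). The part of the sexes and of the small S3-like counts in this pattern was not tested.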

How the results depend on the processing

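No paired analysis was possible because each time has 1 library. Each member's ratio in proximal tubule-like cells was recomputed under 12 alternatives. Those without barcodes shared by libraries, standardised to clusters, standardised to clusters and sex, without cluster 0, and the count without mitochondrial genes were chosen after seeing the data. The direction at 12 h held under all 12 for every member but Slc34a3. For Xpr1 the 4 h values ranged from -0.48 to -0.33 and the 12 h values from -0.37 to -0.24. The Slc9a3r1 values at 4 h ranged from 0.31 to 0.55, and those of Slc20a2 at 1 h from 0.30 to 0.40. The number of called members at 1, 4 and 12 h was 1, 3 and 2, and with a line at 1.5-fold it was 0, 1 and 0. With clusters and sex standardised it was 1, 3 and 0, and without mitochondrially encoded genes 1, 2 and 2.

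The cases by sex named next are not all of those where the direction differed. Slc34a3 at 1 h in proximal tubule-like cells went from 30.2 to 34.5 CPM in male-called and from 43.4 to 42.8 in pooled cells. Slc20a1 at 1 h in S2-like cells (cluster 0 included) went from 22.0 to 30.6 CPM in female-called and from 19.8 to 19.0 in pooled cells. In male-called cells alone, the direction differed for Slc34a1 at 4 h in proximal tubule-like cells (0.071) and in S3-like cells at 1 h (-0.23) and 12 h (0.47), for Slc20a1 at 1 h in proximal tubule-like (-0.079) and S3-like cells (-0.090), and for Pdzk1 at 4 h in proximal tubule-like (0.0084) and at 1 h in S3-like cells (-0.13). In female-called S2-like cells alone (cluster 0 included) it differed for Slc34a1 (-0.28) and Pdzk1 (-0.22) at 4 h. There it also differed for Slc34a3 at 12 h (-1.06, from 29 and 13 UMIs at 0 and 12 h). In female-called proximal tubule-like cells the direction differed for Slc34a3 at 4 h (-0.12) and 12 h (-0.0018). The 4 h ratios in S2-like cells with cluster 0 were 0.02 for Slc34a1 and 0.03 for Pdzk1. They became -0.076 and -0.064 without mitochondrially encoded genes, and -0.040 and -0.0044 without cluster 0. For Slc34a3 in proximal tubule-like cells the mitochondrial limit of 25% gave -0.053 at 4 h. Standardisation to segment and sex gave -0.079 at 4 h and -0.11 at 12 h, to clusters -0.079 and -0.042, and to clusters and sex -0.090 and -0.038. The median of the hormone receptor list at 1 h was 0.02, and -0.010 with genes of at least 20 UMIs. Apart from alternatives defined by the cells they keep or weight, the cause was not tested. Depth limits Slc9a3r2 outside endothelial-like cells, Slc34a3 outside S1-like cells and all members in S3-like, macrophage-like and mesenchymal-like cells.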

Other observations

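An unnamed cluster of 78 cells at 0 h, number 26, whose leading genes were Sox17, Cldn5, Tm4sf1 and Fbln5, held 1894 CPM of Slc9a3r2, above the 1004 CPM of the endothelial-like class. Another unnamed cluster, number 28, with 146 cells at 0 h and led by Xist, Cpeb3 and Slc5a12, held 7082 CPM of Slc34a1, 216 of Slc34a3 and 146 of Xpr1. It was left unnamed because it was shallow, with a median of 1780 UMIs per cell over all libraries. No proximal tubule class marker was among its leading genes. In the same cluster Pdzk1 was at 337 CPM, Slc9a3r1 at 69.5 CPM and Slc9a3r2 had 0 UMIs. Within the proximal tubule over all libraries, clusters 4, 8 and 15 had low mitochondrial shares (11.9, 11.6 and 10.7%), low Slc34a1 (1474, 1948 and 1283 CPM) and low Xpr1 (20.9, 15.4 and 13.1 CPM). Their Slc9a3r1 was at 296, 428 and 347 CPM.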
